A study of Mus musculus with 12 samples.

Results

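The immunity-related GTPases (IRG proteins) are a family of interferon-inducible GTPases, and 6 of their genes (*Irgm1*, *Irgm2*, *Igtp*, *Iigp1*, *Ifi47* and *Tgtp1*) were followed here across 2 diets and 2 tissues. They were chosen by name, with their difference between the diets in liver and lung already known, so their diet values are given as a description, without p-values, and nothing is read from the counts of members called that stand beside the share of all probe sets. All probe sets annotated to a member were taken, 7 of the 29409 in the table that are not controls (13710 genes had a probe set of their own), and the 7 had a value on all 12 arrays. *Iigp1* had 2 probe sets and each other gene had 1. The *Tgtp1* probe set also names *Tgtp2*, a near-identical copy, and the signals of these copies cannot be told apart. The mice were male wild-type FVB/N animals that received Se-deficient diets from weaning for 6 weeks. The Se-adequate diet (0.1 Se) had 0.1 ppm Se added to it as sodium selenite, and the Se-deficient diet (0 Se) had 0 ppm added. Total RNA of lung and of liver was hybridized to Affymetrix mouse genome arrays, with 3 biological replicates in each of the 4 groups, namely 0.1 Se lung, 0 Se lung, 0.1 Se liver and 0 Se liver. Signals are given as log2 of the MAS5 signal, a value computed for each array on its own. A level can be compared between groups for 1 probe set, but not between probe sets.

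Interferon-γ, released by natural killer and T cells, signals through its receptor and Jak kinases to switch on a large set of genes in nearly every cell type, and in the mouse the IRG genes are among the most inducible of them. The family falls into regulators, which sit on the membranes of the cell's own organelles and hold the others inactive there, and effectors, which gather on the vacuoles that shelter intracellular pathogens such as *Toxoplasma gondii* and help to break them. *Irgm1*, *Irgm2* and *Igtp* (also called *Irgm3*) encode the regulators. *Iigp1* (*Irga6*), *Ifi47* (*Irgd*) and *Tgtp1* (*Irgb6*) encode effectors. Most IRG genes carry interferon response elements close to their start sites.

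These elements are shown because the members lay higher on the same diet and varied together between arrays. The part of the elements in either was not tested. RefSeq promoters (GRCm38.p6, from 250 bases before to 50 bases after the start) were taken for 5 of the 6 members, *Irgm1*, *Irgm2*, *Igtp*, *Ifi47* and *Tgtp1*, and also for *Tgtp2*. They were searched on both strands for the core of the interferon-stimulated response element, GAAANNGAAA, and for the γ-activated site, TTCNNNGAA. Each line below shows 50 bases upstream of the start, 5′ to 3′ on the strand of the gene, with the response element core in capitals.
Irgm1: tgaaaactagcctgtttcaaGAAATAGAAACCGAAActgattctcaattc
Irgm2: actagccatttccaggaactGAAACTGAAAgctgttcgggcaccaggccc
Igtp: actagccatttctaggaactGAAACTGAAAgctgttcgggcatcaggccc
Tgtp1: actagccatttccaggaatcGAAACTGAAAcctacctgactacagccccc
Tgtp2: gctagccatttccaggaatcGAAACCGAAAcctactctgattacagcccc
The windows lie at chr11:48871421-48871470 on the minus strand for *Irgm1*, chr11:58214893-58214942 on the plus strand for *Irgm2*, chr11:58199502-58199551 on the plus strand for *Igtp*, chr11:48992294-48992343 on the minus strand for *Tgtp1* and chr11:49064253-49064302 on the minus strand for *Tgtp2*. *Irgm1* held 2 overlapping cores. The γ-activated site, which is found on both strands wherever it occurs, lies 2 bases upstream of the core in *Irgm2*, *Igtp*, *Tgtp1* and *Tgtp2*, does not overlap it, and was not found for *Irgm1*. In the *Ifi47* window neither string of letters was present. Of 32851 promoters in the table, 3.44% held the core, 8.30% held the γ-activated site and 0.454% held both. A match of letters is a description and not a measured site.

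In lung, all 6 GTPase mRNAs lay higher on the 0.1 Se diet than on the 0 Se diet, by 2.48-fold to 3.49-fold, and on every one of them the 3 arrays of the 0.1 Se group lay above the 3 of the 0 Se group. Among the regulators, *Igtp*, whose product resides on the endoplasmic reticulum, gave log2 signals of 12.69, 12.81 and 12.05 in 0.1 Se lung, against 11.20, 10.49 and 10.69 in 0 Se lung. The lowest 0.1 Se array thus stood 0.85 above the highest 0 Se array, and the difference of the means was 1.73 ± 0.21 on the log2 scale (SE, n = 3 each; 3.31-fold). *Irgm2*, which encodes a Golgi-associated regulator, gave 12.24, 12.47 and 11.93 in 0.1 Se lung, against 10.97, 10.06 and 10.58 in 0 Se lung, a log2 difference of 1.68 ± 0.20 (SE, 3.20-fold). *Irgm1*, which encodes the regulator whose loss leaves mice prone to mycobacterial infection, gave 11.09, 10.81 and 10.45 in 0.1 Se lung, against 9.89, 9.20 and 9.25 in 0 Se lung. Its difference was 1.34 ± 0.20 (SE, 2.53-fold), and its groups were again apart.

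The effectors were also higher in 0.1 Se lung. *Tgtp1*, whose product is among the GTPases that coat the *Toxoplasma* vacuole, gave 13.57, 13.97 and 13.19 in 0.1 Se lung, against 12.45, 11.40 and 11.47 in 0 Se lung, a log2 difference of 1.80 ± 0.26 (SE, 3.49-fold). *Iigp1*, which encodes an effector that assembles on the same vacuole, gave 13.30, 13.48 and 12.99 in 0.1 Se lung, against 11.92, 11.43 and 11.27 in 0 Se lung, a difference of 1.72 ± 0.17 (SE, 3.29-fold). Its other probe set gave a difference of 1.62 ± 0.15 (SE, 3.07-fold), so both probe sets of the gene moved by about the same amount. *Ifi47* gave 12.43, 12.45 and 12.02 in 0.1 Se lung, against 11.49, 10.84 and 10.65 in 0 Se lung, a difference of 1.31 ± 0.19 (SE, 2.48-fold). In *Tgtp1*, *Iigp1* and *Ifi47* the highest 0 Se array was replicate 1, and it stayed below the lowest 0.1 Se array.

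Over the 6 members the median log2 difference in lung was 1.70, against -0.01 over the 21655 probe sets tested in this tissue. By limma with Benjamini-Hochberg adjustment at 0.05, 6 of 6 members were counted as higher in 0.1 Se lung. The same threshold was passed in that direction by 0.0739% of the probe sets tested, and 6.07% of the probe sets with 6 values had all 0.1 Se arrays above all 0 Se arrays. Since the members were chosen on this contrast, nothing is read from these counts. The count was 0 when replicate 2 of either lung group was left out, and 1 without 0 Se lung replicate 3, while the log2 differences of the members stayed between 1.14 and 2.14 over the alternatives tried.

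**Figure D1:**
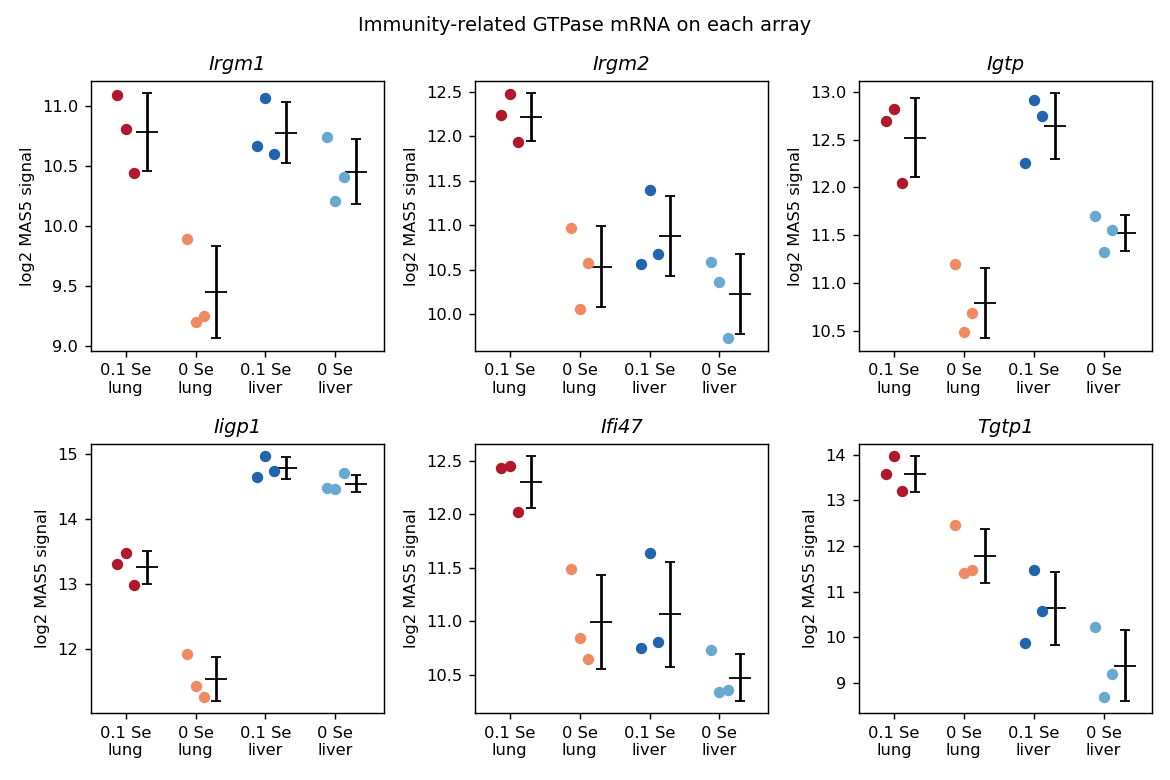
Log2 MAS5 signal (vertical axis, a separate scale in each panel) of the 6 GTPase mRNAs on each of the 12 arrays, by group; points are arrays and the bar beside them is the mean ± SD of 3. In lung the 0.1 Se arrays lie above the 0 Se arrays for 6 of 6 genes, whereas in liver they do so for 2 of 6, *Igtp* and *Ifi47*.

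In liver the members also lay higher on the 0.1 Se diet in the mean, but by 1.18-fold to 2.40-fold, and the arrays of the diets overlapped for 4 of 6 genes. *Igtp* was the member with the clearest gap, with 12.26, 12.92 and 12.75 in 0.1 Se liver, against 11.70, 11.32 and 11.56 in 0 Se liver. Its log2 difference was 1.11 ± 0.16 (SE, n = 3 each; 2.16-fold), and the nearest arrays of the 2 diets stood 0.56 apart. *Irgm2* gave 10.56, 11.40 and 10.68 in 0.1 Se liver, against 10.59, 10.37 and 9.73 in 0 Se liver (0.65 ± 0.25, SE, 1.57-fold). Here 0 Se replicate 1 lay above 0.1 Se replicate 1. *Irgm1* gave 10.67, 11.07 and 10.60 in 0.1 Se liver, against 10.75, 10.21 and 10.41 in 0 Se liver (0.33 ± 0.17, SE, 1.25-fold), and again 0 Se replicate 1 lay within the range of the 0.1 Se arrays.

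The effectors in liver differed more among themselves. *Tgtp1* had the largest mean difference and also the widest spread, with 9.88, 11.48 and 10.57 in 0.1 Se liver, against 10.23, 8.71 and 9.21 in 0 Se liver (1.26 ± 0.41, SE, 2.40-fold). The SD was 0.80 in 0.1 Se liver and 0.78 in 0 Se liver, so the highest and lowest arrays of either diet stood farther apart than the diet means, and the groups overlapped. *Ifi47* gave 10.75, 11.63 and 10.81 in 0.1 Se liver, against 10.73, 10.34 and 10.36 in 0 Se liver (0.59 ± 0.22, SE, 1.51-fold), and its groups were separated by only 0.02. *Iigp1* gave 14.66, 14.97 and 14.74 in 0.1 Se liver, against 14.48, 14.46 and 14.71 in 0 Se liver (0.24 ± 0.11, SE, 1.18-fold), with 0 Se replicate 3 above 0.1 Se replicate 1. Its other probe set differed by 0.22 ± 0.14 (SE). The highest value of any probe set in the table was 16.4.

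The median difference of the members in liver was 0.62, against 0.00 over the 16575 probe sets tested. As in lung, the members were chosen on this contrast and nothing is read from their count of calls, which was 0 of 6 in the limma fit of liver, where 0.0121% of the probe sets were higher in 0.1 Se at an adjusted p under 0.05, and 4.99% of the probe sets with 6 values had all 0.1 Se arrays above all 0 Se arrays. Without 0.1 Se liver replicate 1 the count was 1. Without 0.1 Se liver replicate 2, the array highest for 6 of 6 members, the median fell to 0.35, and the differences were 0.98 for *Igtp*, 0.84 for *Tgtp1*, 0.39 for *Irgm2*, 0.31 for *Ifi47*, 0.18 for *Irgm1* and 0.15 for *Iigp1*. *Irgm1* also stood at 0.20 without 0 Se liver replicate 2, and *Irgm2* at 0.40 without 0 Se liver replicate 3. In the whole fit 2 probe sets passed after adjustment and 1102 had an unadjusted p under 0.05.

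The size of the diet difference was larger in lung than in liver for 6 of 6 members. The gap was widest for *Iigp1*, at 1.48 ± 0.22 on the log2 scale (difference in lung minus difference in liver, SE, 12 arrays), and its other probe set gave 1.40 ± 0.23. It was 1.03 ± 0.37 for *Irgm2*, 1.01 ± 0.29 for *Irgm1* and 0.72 ± 0.33 for *Ifi47*. For *Igtp* and *Tgtp1*, the members with the largest differences in liver, it was 0.61 ± 0.31 and 0.54 ± 0.57, the last no larger than its error. The members therefore spanned 1.31 to 1.80 in lung and 0.24 to 1.26 in liver. In the limma fit of this difference, 0% of the 15112 probe sets passed (0 after adjustment, 931 at an unadjusted p under 0.05), and with them 0 of 6 members; the size by tissue had been used to choose the genes. Without 0 Se lung replicate 1 the count of members was 1.

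**Figure D2:**
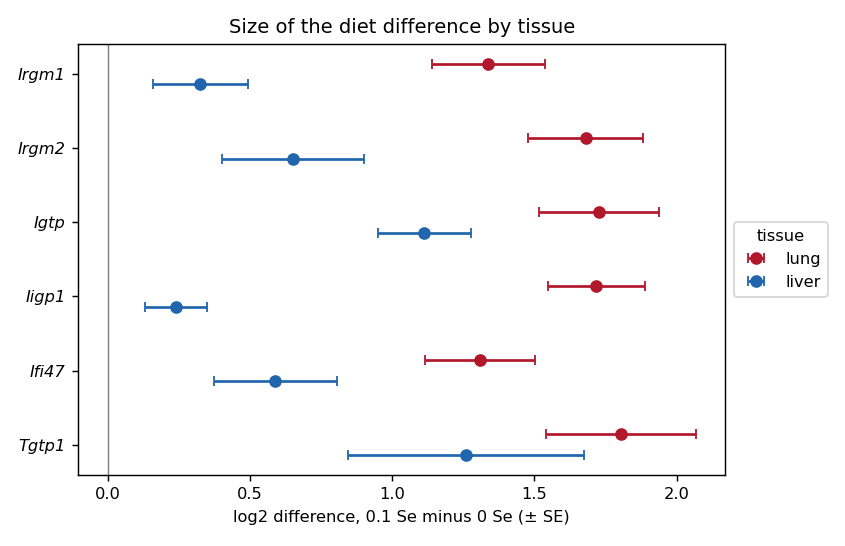
Log2 difference, 0.1 Se minus 0 Se (horizontal axis), with its SE for each GTPase mRNA in lung and in liver, 3 arrays per diet and tissue. The lung values lie between 1.31 and 1.80, and the liver values between 0.24 and 1.26.

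How the GTPases differ between the tissues themselves was not used in choosing them and could be tested. Averaged over the diets, *Tgtp1*, *Ifi47* and *Irgm2* were higher in lung than in liver, and *Iigp1*, *Irgm1* and *Igtp* were lower in lung. *Tgtp1* was 6.33-fold higher in lung (log2 difference 2.66 ± 0.29, SE, limma adjusted p = 3.738e-07, n = 6 arrays per tissue), with lung arrays from 11.40 to 13.97 and liver arrays from 8.71 to 11.48, where 0 Se lung and 0.1 Se liver met. *Ifi47* was 1.83-fold higher (0.87 ± 0.17, limma adjusted p = 0.0001644) and *Irgm2* was 1.77-fold higher (0.82 ± 0.18, limma adjusted p = 0.0007309). In the other direction *Iigp1* gave -2.27 ± 0.11, which is 4.83-fold higher in liver (limma adjusted p = 3.224e-11), and its other probe set gave -1.94 ± 0.11 (limma adjusted p = 2.849e-10). In the mouse, *Iigp1* is known to be transcribed in liver without infection. *Irgm1* (-0.50 ± 0.15, limma adjusted p = 0.005089) and *Igtp* (-0.43 ± 0.15, limma adjusted p = 0.01751) were lower in lung by smaller amounts. Regulators and effectors were thus both split, with 1 regulator and 2 effectors higher in lung, and 2 regulators and 1 effector higher in liver. A difference between these tissues was common, since 81.6% of the 15112 probe sets passed the same test, 47.7% higher in lung and 33.9% higher in liver, and the median over all of them was 0.18. With each array centred on its median the 6 directions and calls stood, at 2.46, 0.68 and 0.62 for *Tgtp1*, *Ifi47* and *Irgm2* and at -2.47, -0.70 and -0.63 for *Iigp1*, *Irgm1* and *Igtp*. Quantile normalization, in contrast, turned *Igtp* to 0.14 (limma adjusted p = 0.4335) and left *Irgm1* at -0.20 (limma adjusted p = 0.2342). *Igtp* also missed the threshold without 0.1 Se lung replicate 3 (-0.31, limma adjusted p = 0.05246) and without 0 Se lung replicate 2 (-0.35, limma adjusted p = 0.05156).

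Read on each diet alone, the tissue differences took the following values, which restate the difference of the diet response between tissues, where 0 of 6 members passed and whose size had been used to choose the genes. They are therefore a description, and an effect that passes on 1 diet and misses on the other is not shown to differ between them. On the 0.1 Se diet alone, *Tgtp1*, *Irgm2* and *Ifi47* stood 2.93 ± 0.33, 1.34 ± 0.21 and 1.23 ± 0.22 higher in lung (log2, SE, n = 3 each). On the 0 Se diet alone these values were 2.39 ± 0.36, 0.31 ± 0.24 and 0.52 ± 0.19, and that of *Irgm2* missed the threshold (limma adjusted p = 0.2668). *Irgm1* was level between the tissues on the 0.1 Se diet, at 0.0028 ± 0.18, with means of 10.78 in 0.1 Se lung and 10.78 in 0.1 Se liver, and gave -1.01 ± 0.19 on the 0 Se diet, with means of 9.45 in 0 Se lung and 10.45 in 0 Se liver. *Igtp* followed the same course, with -0.12 ± 0.21 on the 0.1 Se diet (limma adjusted p = 0.6258) and -0.73 ± 0.17 on the 0 Se diet. *Iigp1* was lower in lung on both, with -1.53 ± 0.14 on the 0.1 Se diet and -3.01 ± 0.15 on the 0 Se diet.

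**Figure D3:**
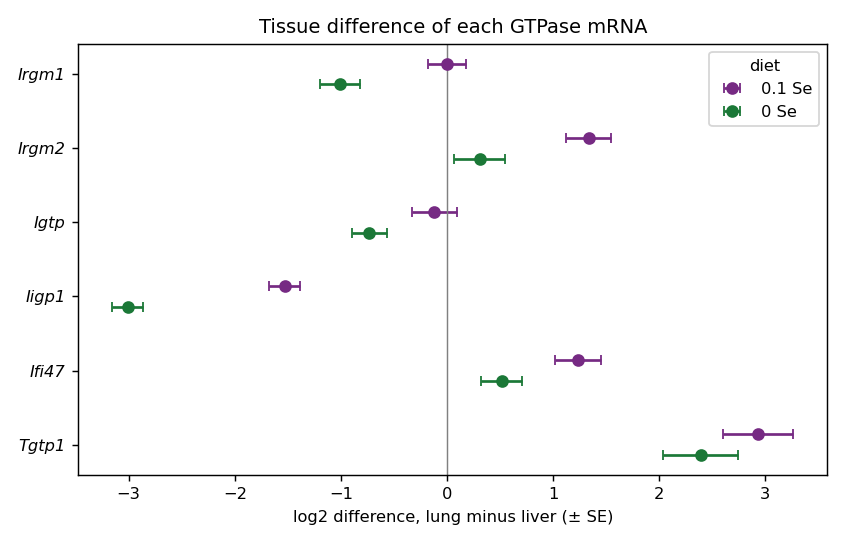
Log2 difference, lung minus liver (horizontal axis), with its SE for each GTPase mRNA on the 0.1 Se diet and on the 0 Se diet, 3 arrays per tissue and diet. *Irgm1* and *Igtp* lie near 0 on the 0.1 Se diet (0.0028 and -0.12) and below it on the 0 Se diet (-1.01 and -0.73), while *Tgtp1* lies at 2.93 and 2.39 and *Iigp1* at -1.53 and -3.01.

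Ordered by level, the 4 groups gave different series for the members. *Irgm2* and *Ifi47* ran 0.1 Se lung, 0.1 Se liver, 0 Se lung, 0 Se liver, and for both genes only the first group was clear of the next, since the arrays of the other neighbouring groups overlapped. *Tgtp1* ran 0.1 Se lung, 0 Se lung, 0.1 Se liver, 0 Se liver, with means ± SD of 13.58 ± 0.39, 11.77 ± 0.59, 10.64 ± 0.80 and 9.38 ± 0.78, and again only the first step was free of overlap. *Igtp* ran 0.1 Se liver (12.64 ± 0.34), 0.1 Se lung (12.52 ± 0.41), 0 Se liver (11.53 ± 0.19) and 0 Se lung (10.79 ± 0.37), so that it was ordered by diet first, and its 0.1 Se groups overlapped each other. *Irgm1* had 3 groups at like levels, with 10.78 ± 0.32 in 0.1 Se lung, 10.78 ± 0.25 in 0.1 Se liver and 10.45 ± 0.27 in 0 Se liver, and 1 group apart below them, at 9.45 ± 0.39 in 0 Se lung. *Iigp1* was ordered by tissue first, with 14.79 ± 0.16 in 0.1 Se liver and 14.55 ± 0.14 in 0 Se liver, which overlapped, then 13.26 ± 0.25 in 0.1 Se lung and 11.54 ± 0.34 in 0 Se lung, each clear of the group above.

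Replicates of a group differed from each other in the same way for most members, a feature that the group means do not hold. When each array was expressed as its deviation from the mean of its own group, the 15 pairs of members had a mean Pearson r of 0.77 over the 12 arrays (0.48 to 0.89). The mean r was 0.88 over the 6 lung arrays and 0.67 over the 6 liver arrays. Each set of 3 deviations sums to 0 and all genes share the arrays, so these values are a description. Lung and liver arrays may also share mice, which the labels do not state. In 0.1 Se lung, replicate 3 was the lowest of 3 for 6 of 6 members and replicate 2 the highest for 5. In 0 Se lung, replicate 1 was the highest for 6 of 6. In 0.1 Se liver, replicate 2 was the highest for 6 of 6, with a mean deviation of 0.44, and replicate 1 the lowest for 5. In 0 Se liver, replicate 1 was the highest for 5 members and replicate 2 the lowest for 5. The members are therefore not independent readings of the diet, since an array that was high for 1 of them tended to be high for the others.

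**Figure D4:**
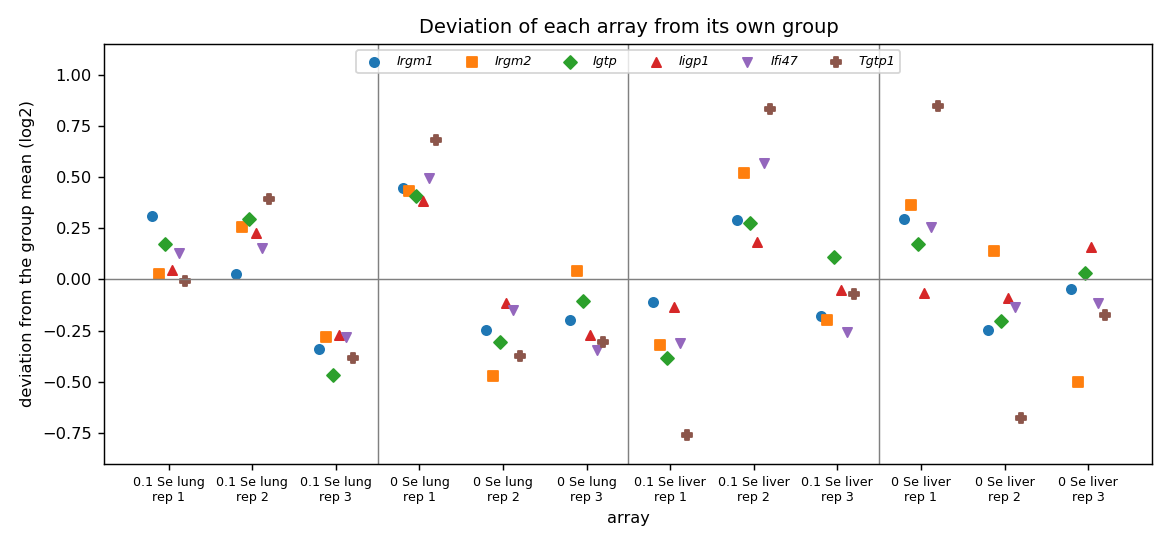
Deviation of each GTPase mRNA from the mean of its group (log2, vertical axis) on each of the 12 arrays (horizontal axis, replicates of a group in no order). The 6 members share 1 sign on 6 of the 12 arrays, for example above 0 on 0 Se lung replicate 1 and on 0.1 Se liver replicate 2, and below 0 on 0.1 Se lung replicate 3, and on the others at least 4 of them do.

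Of 7636 other genes with a probe set read on all arrays, those whose deviations were most like the mean of the members were *Nup210*, a nuclear pore component (r = 0.94 over 12 arrays), *Tapbpl*, which encodes a peptide editor of MHC class I (r = 0.94), *Gbp3*, an interferon-inducible guanylate-binding protein gene (r = 0.93), *Slc35f6* (r = 0.92), *Herc6*, the ligase for the ubiquitin-like protein ISG15 in the mouse (r = 0.91), and *C2cd2l* (r = 0.91). The median over all these genes was 0.04 and the 95th percentile 0.60. The 6 named were picked as the highest of 7636 on only 12 arrays, so their r is a description and a link to the members was not tested. Not all of them differed with diet as the members did. *Gbp3* differed by 1.29 ± 0.26 in lung and 0.69 ± 0.27 in liver (log2, SE), *Herc6* by 0.73 ± 0.14 and 0.51 ± 0.15, and *Tapbpl* by 0.45 ± 0.13 and 0.21 ± 0.14 in the same order. *Nup210* (-0.13 ± 0.15 in lung, 0.31 ± 0.20 in liver), *Slc35f6* (-0.08 ± 0.19, 0.11 ± 0.25) and *C2cd2l* (0.17 ± 0.19, 0.19 ± 0.19) stood less than 2 SE from 0 in both tissues, and *Tapbpl* did so in liver.

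Of 11 other IRG genes looked for, 3 had a probe set of their own. *Gm4951*, a close relative of *Iigp1*, gave 9.71, 9.78 and 9.08 in 0.1 Se lung, against 9.02, 7.64 and 7.36 in 0 Se lung. Its groups were just apart, and the difference of 1.52 ± 0.37 (log2, SE) did not pass the test over all probe sets (limma adjusted p = 0.27). In liver it gave 12.79, 13.17 and 12.90 in 0.1 Se mice, against 12.76, 12.83 and 12.91 in 0 Se mice (0.12 ± 0.11, limma adjusted p = 0.88). *Gm4951* was far lower in lung than in liver (-4.13), so that, like *Iigp1*, it had its higher level in liver. Its diet difference was larger in lung by 1.40 ± 0.44, but this did not pass the test (limma adjusted p = 0.7001). *Gm12185* was listed on 3 of 3 arrays of 0.1 Se lung (7.51, 7.63 and 7.16) and on 1 of 3 of 0 Se lung (6.81), near the lowest listed value of 6.64, and was too sparse to test. *Irgq*, a divergent family member, differed by -0.01 in lung and -0.14 in liver, and neither passed the test.

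Guanylate-binding proteins (Gbp) are larger interferon-inducible GTPases that act at the same vacuoles. This list, like the other gene lists, was chosen with earlier results of these data known, so its diet values are a description. In lung, 5 of the 11 genes listed were tested and 5 of 5 lay higher on the 0.1 Se diet in the mean. *Gbp2* alone passed the test (1.17 ± 0.15, log2, SE, limma adjusted p = 0.02595), beside 0.0739% of all probe sets tested that passed in that direction. That call is lost when replicate 2 of either lung group is left out (0 probe sets passed then). *Gbp8* (1.92 ± 0.34), *Gbp6* (1.59 ± 0.25), *Gbp7* (1.29 ± 0.20) and *Gbp3* had limma adjusted p between 0.06395 and 0.1453. The median of the 5 was 1.29, and that of the members 1.70. In liver, 0 of 6 passed, with a median of 0.70 and a range of 0.62 to 1.21, beside a median of 0.62 for the members.

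Genes of the signalling route to the IRG promoters had smaller median differences. Among the genes of this route, 11 were tested, including the receptor chains *Ifngr1* and *Ifngr2*, the kinases *Jak1* and *Jak2*, and *Irf1*, a transcription factor that binds the response element. In lung none passed (0 of 11) and the median was 0.15, with *Irf9*, a subunit of the complex that binds the response element, at 0.57 ± 0.12 (limma adjusted p = 0.2038), *Irf1* at 0.42 ± 0.11 (limma adjusted p = 0.3008), *Jak1* at 0.20 ± 0.10 and *Pias1* at -0.13 ± 0.10. In liver none passed (0 of 11) and the median was 0.22, led by *Irf8* (0.47 ± 0.18), *Stat2* (0.45 ± 0.22), *Irf1* (0.43 ± 0.18) and *Irf9* (0.40 ± 0.22). The 13 genes of the autophagy machinery and of vacuole tagging, which place IRG proteins on the right membranes, had medians of -0.01 in lung and 0.06 in liver. Here too 0 of 13 passed in either tissue, and *Trim21* (0.38 ± 0.11, limma adjusted p = 0.3801) and *Map1lc3a* (-0.27 ± 0.09, limma adjusted p = 0.4432) in lung were those nearest to the threshold. Between the tissues, 5 of 5 Gbp genes, 9 of 11 signalling genes and 3 of 13 autophagy genes were higher in lung, and 0, 1 and 7 were lower, beside 47.7% of all probe sets tested that were higher in lung and 33.9% that were higher in liver.

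The members lie in 3 places of the genome. *Irgm1*, *Tgtp1* and *Ifi47* share a stretch of chromosome 11, *Igtp* and *Irgm2* are neighbours elsewhere on chromosome 11, and *Iigp1* lies on chromosome 18. The nearest genes outside the family that could be tested in both tissues were *Trim41* and *Zfp62*, *Mrpl22* and *Zfp692*, and *Isoc1* and *Dctn4*. They differed by -0.10 to 0.09 in lung and by -0.25 to 0.18 in liver (log2, 0.1 Se minus 0 Se), and none passed (0 of 6 in either tissue, lowest limma adjusted p = 0.8436).

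The arrays carried the marks of their tissues. The summed signal of 5 hepatocyte markers (a blank counted as 0) was 251625 to 318287 on the liver arrays and at most 984 on the lung arrays, while that of 3 alveolar type 2 cell markers was 57505 to 94002 in lung and at most 124 in liver. The arrays of a group correlated at r = 0.978 to 0.990, and 22197 to 22718 probe sets were listed in lung and 17235 to 17923 in liver. In whole tissue, fewer cells of a type and less RNA per cell cannot be told apart, and markers of some immune cells moved with diet along with the GTPases. In lung, the sum of the 8 natural killer and cytotoxic cell markers was 4340 to 7455 on 0.1 Se arrays and 2146 to 3297 on 0 Se arrays, with 7 of 7 tested markers higher in the mean and 0 of 7 passing the test; *Ncr1*, *Nkg7* and *Tbx21* were listed on all lung arrays and on 0 liver arrays. The 4 neutrophil markers summed to 16980, 4154 and 4238 on replicates 1, 2 and 3 of 0.1 Se lung. They summed to 1171 to 2956 in 0 Se lung, again without overlap, with 3 of 3 tested markers higher in the mean and 0 of 3 passing. Macrophage markers (39968 to 53026 in 0.1 Se lung, 44676 to 52215 in 0 Se lung, with 6 of 7 tested markers higher in the mean, a median log2 difference of 0.23 and 0 of 7 passing), T cell markers (704 to 1241 in 0.1 Se lung, 535 to 1005 in 0 Se lung) and cardiac muscle markers (2693 to 11455 in 0.1 Se lung, 1602 to 20147 in 0 Se lung) overlapped. Other lists had medians below 0 in lung. B cell markers (0 of 2 higher in the mean, median -0.16) and club cell markers (0 of 3, -0.41) lay lower on the 0.1 Se diet. Endothelial (2 of 4, -0.03), alveolar type 1 (2 of 4, -0.05) and alveolar type 2 cell markers (1 of 3, -0.18) were mixed, and 0 markers of these lists passed. In liver, the 9 macrophage and Kupffer cell markers summed to 19158 to 24162 on 0.1 Se arrays and 14226 to 17812 on 0 Se arrays, with 9 of 9 higher in the mean and 0 of 9 passing; the Kupffer cell marker *Clec4f* was listed on all liver arrays and on 0 lung arrays. The cytotoxic cell markers summed to 502 to 643 in 0.1 Se liver, where 3 of 8 were listed, and to 112 to 397 in 0 Se liver, where 1 to 2 were. With a blank counted as 0, these sums also differ by the number of markers listed. Of the 2 tested, 2 were higher in the mean and 0 passed. The part of these cells in the diet differences of the GTPases was not tested.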

How the data were processed

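Total RNA of lung and liver of 12 samples (2 diets, 3 arrays per group) had been labelled and hybridized to Affymetrix mouse genome arrays. The authors computed MAS5 signals for each array independently and excluded absent calls, with R 2.15.2 and affy 1.36.0 listed in the processing notes of the submitters. The deposited values are log2 signals from 6.64 (a signal of 100) to 16.4, with 112136 blank cells, which may be absent calls or low signals. They were used as deposited. Control probe sets (58) were removed, and genes were named by the platform annotation, updated through Entrez numbers (24434 of 24504 probe sets of 1 gene matched), and promoters from RefSeq. The members and gene lists were chosen with earlier results of these data known. A gene stood with the probe set that had values on most arrays, then the highest mean. A probe set with at least 2 values in each group was tested by limma 3.58.1 in R 4.3.3 (lmFit, eBayes with trend) with Benjamini-Hochberg adjustment over all probe sets at 0.05. Diet was fitted within each tissue as 0.1 Se minus 0 Se, and the tissue effect as lung minus liver over 12 arrays. The genes named were all members, every other IRG gene with a value, the genes of each list past the test or with the smallest unadjusted p, and the 6 genes with deviations most like those of the members; *Ifngr1*, *Ifngr2* and *Jak2* were named outside this rule, after their values were seen, to show what the list holds. The fits were also run on simulated data, drawn with independent noise for each probe set and without blanks, unlike the real arrays. Of 100 probe sets changed by 1 on the log2 scale, 77 were recovered in liver and 83 in lung. For the difference between tissues 64 of 100 were recovered, and for the tissue effect 98. With 3 arrays per group an exact two-sided permutation test cannot give p under 0.1. The labels do not state whether lung and liver came from the same mice. Arrays of like replicate number were compared by the correlation of deviations from group means, which lay between -0.04 and 0.11 across tissues. This does not settle whether the mice were shared.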

Additional observations from a re-analysis of the deposited data

How the results depend on the processing

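The diet differences of the 6 members kept their sign under 17 alternatives in each tissue, but for many of these the sign could not change. Filling or filtering blanks, the fits without the trend or with the robust trend, the replicate block and 1 fit of all 12 arrays left the differences as they were. They altered only the SE or the probe sets tested. In lung the arrays of the diets did not overlap for any member, so leaving out 1 array could not turn a sign. In lung the median of the members lay between 1.51 and 1.90 and in liver between 0.35 and 0.78. The number of calls was less stable. In lung, 20 probe sets and 6 members passed, against 5 and 0 with blanks set at the lowest value and no filter, 10 and 3 with quantile normalization, 0 and 0 without the trend, 13 and 1 with the robust trend, 54 probe sets with array weights, and 1 member when the probe sets of a gene were averaged. Leaving out 1 array gave 0 to 75 probe sets and 0 to 6 members. In liver, 2 probe sets and 0 members passed, against 1 with values on every array, 5 with blanks at the lowest value, 0 without the trend, 9 with averaged probe sets and 13 in 1 fit of all 12 arrays, and 0 to 9 probe sets and 0 to 1 members without 1 array. The methods' t-test gave 1412 probe sets in lung and 985 in liver unadjusted, 179 and 136 with a 1.5-fold change, and 0 and 0 after Benjamini-Hochberg adjustment. For the difference of the diet response between tissues the count of 0 became 58 with blanks at the lowest value and 10 with averaged probe sets, and 0 to 3 (members 0 to 1) without 1 array.

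The labels do not say whether lung and liver arrays of 1 number came from the same mouse. The numbers were not taken as pairs. The correlation of deviations passed 0.1 in 2 of 6 pairs across tissues and in 1 of 6 across diets. Arrays of unlike number were not correlated for reference, so this does not settle whether the mice were shared. Mean deviations of the members in 0 Se replicates 1 to 3 were 0.31, -0.20 and -0.11 in liver. They were 0.47, -0.28 and -0.20 in lung, with like signs. In 0.1 Se liver they were -0.34, 0.44 and -0.11. In 0.1 Se lung they were 0.11, 0.22 and -0.34, with replicate 1 of opposite sign. The main fits took the arrays as independent, and their SE across tissues rest on this. With the number as a replicate block, 54 probe sets passed in lung and 0 in liver, and, in an alternative chosen after seeing the data, diet and number together as the block gave 3 probe sets and 1 member for the difference between tissues, where the SE of *Tgtp1* became 0.27, against 0.57 without the block. For the tissue effect the block changed no call of a member. That effect was called for 12326 of 15112 probe sets, against 19425 with blanks at the lowest value and 7566 with averaged probe sets. The number tested also changed, here and in the counts above. Without a filter more probe sets were tested, and averaging left 1 value per gene, so these counts are not on 1 scale. Of the members, *Igtp* turned to 0.14 with quantile normalization and *Irgm1* to 0.0028 on 0.1 Se arrays alone. *Igtp* also lost its call with blanks at the lowest value (limma adjusted p = 0.07019). The mean correlation of within-group deviations was 0.88 over lung arrays alone. The cause of these changes was not tested.

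Precision is limited by 3 arrays per group, and blanks hide low signals. The members were read on every array, so filling or filtering blanks left their differences as they were.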
